A study of Homo sapiens with 6 samples.

Results

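The 49 genes described here encode proteins of the centromere, the kinetochore and the spindle checkpoint. They were chosen by name from the 58735 rows of a gene count table: all rows named CENP followed by a single letter from A to X, plus a list of kinetochore, checkpoint, shugoshin and CENP-A loading genes. The choice was made with earlier results of these data known. All 49 had enough counts to be tested, so no member is missing from the counts given here. The table comes from ACHN cells, an established human renal cancer cell line, grown in minimum essential medium with fetal bovine serum. In the OTUD1 siRNA group (3 libraries) the cells were transfected with a small interfering RNA (siRNA), named si01 in the labels, against OTUD1, which encodes a deubiquitinase of the OTU family. The control siRNA group (3 libraries) received the control siRNA of the same knockdown experiment. With a single siRNA against OTUD1, effects of the loss of OTUD1 and effects of this siRNA on other transcripts cannot be told apart. No label says whether the libraries of a group are separate cultures; the p-values therefore describe the spread between these libraries, which may be technical.

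The centromere is marked by nucleosomes that carry the histone H3 variant CENP-A. On it sits the constitutive centromere-associated network (CCAN), which holds the outer kinetochore, and the Ndc80 complex of the outer kinetochore grips spindle microtubules. Kinetochores that are not attached recruit the spindle checkpoint proteins of the Mad and Bub families, which hold back the anaphase-promoting complex until every chromosome is attached. Many of these genes are transcribed mainly in G2 and M phase.

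Libraries held 17243433 to 21013530 counts in the OTUD1 siRNA group and 16753495 to 18993534 in the control siRNA group, and the members took 27416 to 33013 of these counts after OTUD1 siRNA and 33159 to 37877 in controls. Levels are CPM, counts scaled to library size, after TMM scaling between libraries. OTUD1 itself was at 1.28, 0.844 and 1.39 CPM in the 3 OTUD1 siRNA libraries, against 3.82, 3.69 and 3.795 CPM in the 3 control libraries, a 3.22-fold lower level (log2 fold change -1.69, SE 0.24, adjusted p = 4.37e-07). Of 7 renal epithelial markers, CDH6 was at 0 counts in every library, 5 fell and 1 (EPCAM) rose. Their summed level was 3110 to 3222 CPM after OTUD1 siRNA and 6340 to 6541 CPM in control libraries, most of it from the keratin genes KRT8 and KRT18. Of 6 leukocyte markers, PTPRC, CD3E and LYZ had 0 counts in all libraries, CD8A rose at under 1 CPM, and the list summed to 1.24 to 1.89 CPM after OTUD1 siRNA, against 1.49 to 1.63 CPM in controls. The 6 fibroblast and endothelial markers summed to 143 to 154 CPM after OTUD1 siRNA, against 284 to 295 CPM in controls, mostly from THY1, which fell, while PDGFRB rose. The part of these shifts in the results was not tested.

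Most of the kinetochore and checkpoint genes fell after OTUD1 siRNA. Of the 49, 36 were lower and 5 higher at an adjusted p under 0.05 (edgeR quasi-likelihood test, adjusted over all 15244 genes tested), and 8 did not pass. A call is common in this comparison, for 60.4% of all genes tested and 83.7% of the members (41 genes) in either direction: 31.1% of all genes tested were lower and 29.3% higher, against 73.5% and 10.2% of the members. For a decrease of at least 1.5-fold the shares were 34.7% of the members (17 genes) and 10.8% of all genes, and for one of at least 2-fold 12.2% (6 genes) and 3.53%. With libraries scaled by their totals in place of TMM, 3456 of all genes were lower and 6189 higher, against 4746 and 4460 with TMM; the members then stood at 34 lower and 6 higher, with a median of -0.39 beside 0.13 for all genes. The 5 members that rose with TMM kept their call in all 14 alternative settings. An increase of at least 1.5-fold was found for 2 members, 4.08%, against 12.2% of all genes. The median log2 fold change was -0.52 over the members and 0.0056 over all genes tested. Taken library by library against the control mean, the members' median lay between -0.52 and -0.47. In bulk RNA, fewer dividing cells and less of each mRNA per cell cannot be told apart.

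**Figure D1:**
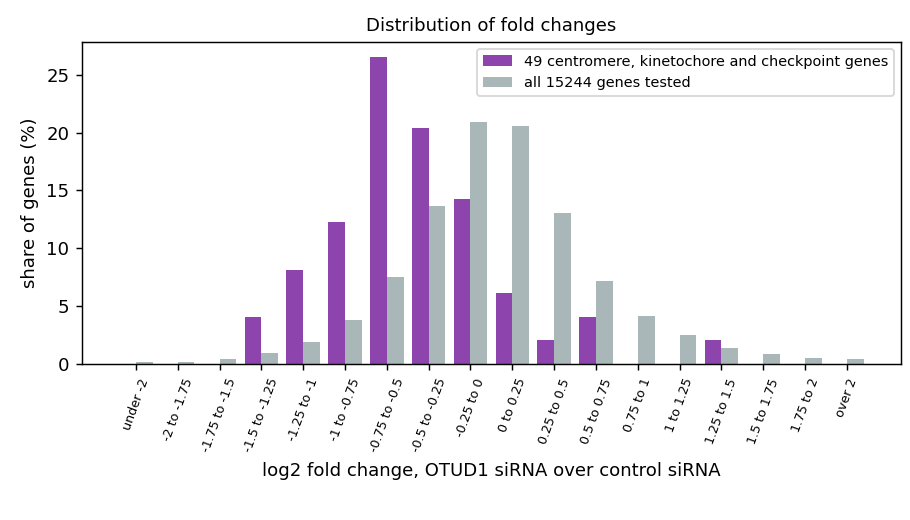
Share of genes (%) in each bin of log2 fold change, OTUD1 siRNA over control siRNA, for the 49 members (purple) and all 15244 genes tested (grey). The bin from -0.75 to -0.5 holds the largest share of the members, 26.5%, and 7.5% of all genes.

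The summed level of the 49 genes was 1505, 1515 and 1523 CPM in the OTUD1 siRNA libraries, against 2075, 2086 and 2082 CPM in the control libraries. The 3 libraries of each group thus lay close together, and the groups were far apart. For 36 members every OTUD1 siRNA library lay below every control library (33% of all genes tested), and for 5 every one lay above (31.5%). The called genes and those with separate groups differ by a pair: CENPC was called lower although its groups overlapped, and CENPI did not pass although they did not.

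**Figure D2:**
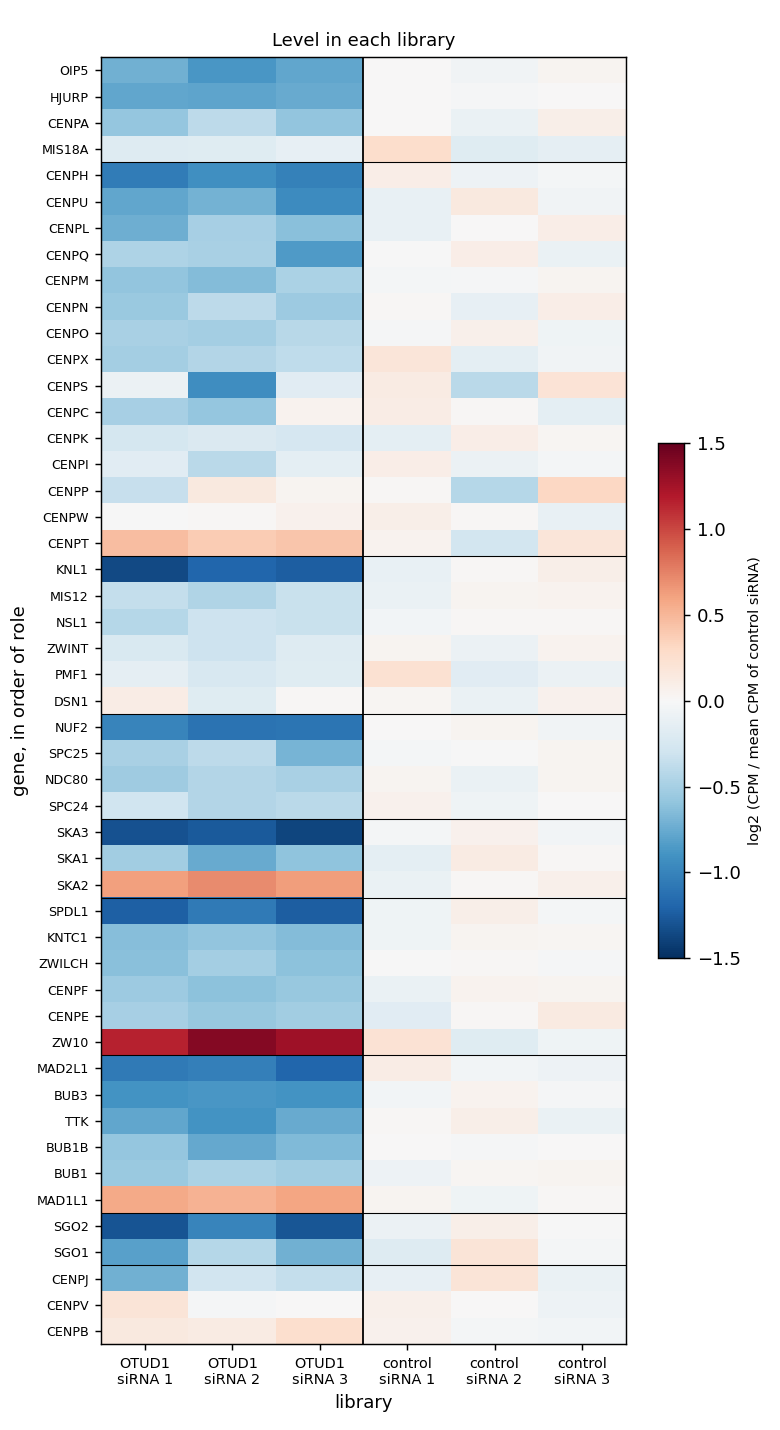
Level of each member in each of the 6 libraries, as log2 of its CPM over its mean CPM in the control libraries, with genes in order of role and the OTUD1 siRNA libraries on the left. The 36 lower genes are blue on the left, apart from CENPC in OTUD1 siRNA replicate 3, and some genes that did not pass are blue there too. ZW10, SKA2, MAD1L1 and CENPT stand out in red.

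**Figure D3:**
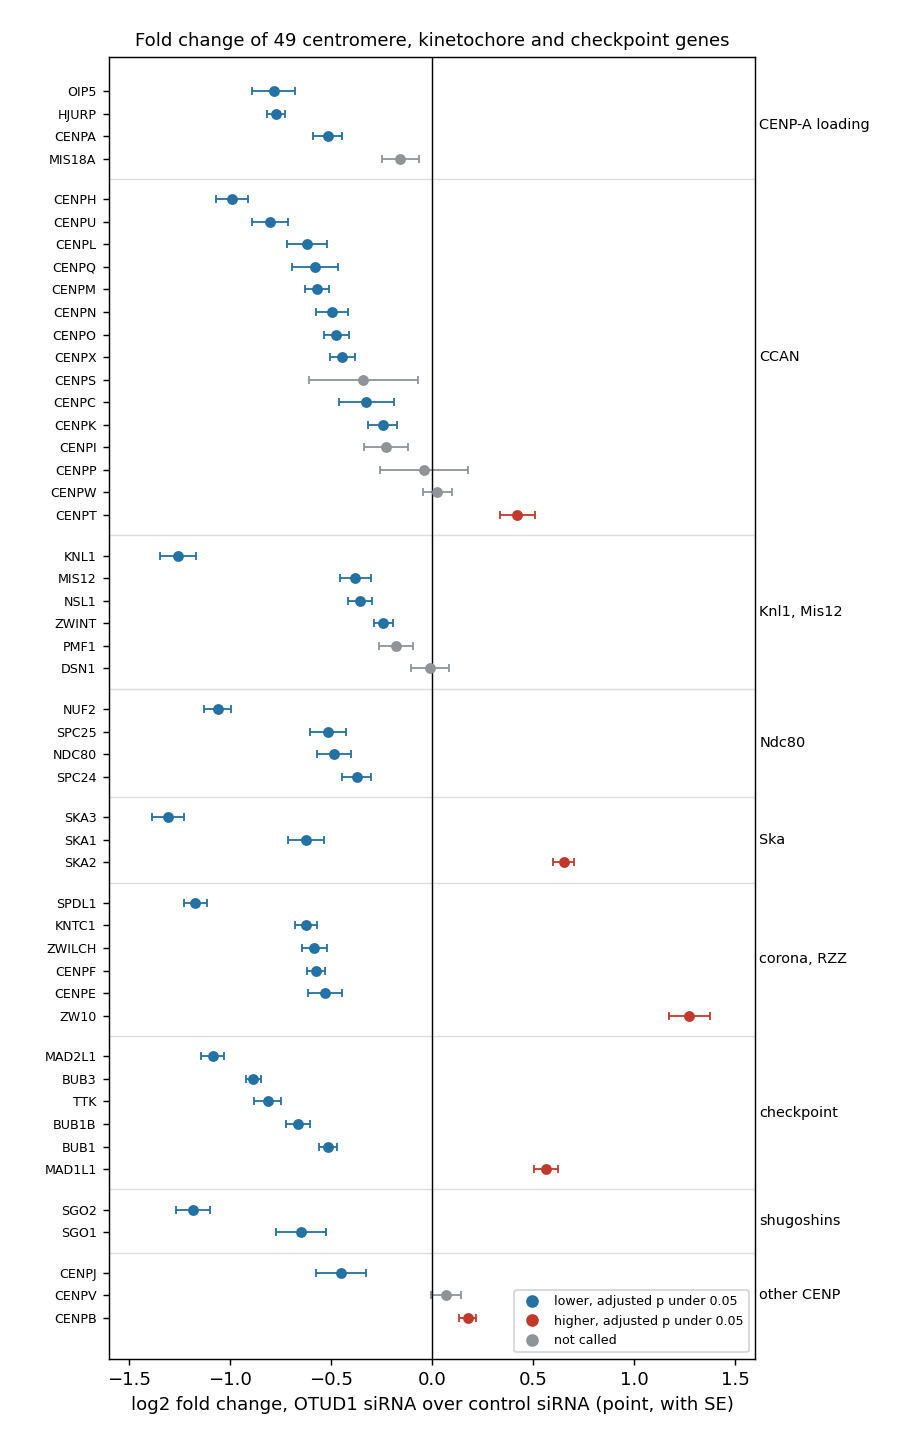
Log2 fold change of each member, OTUD1 siRNA over control siRNA, with its SE, grouped by role. Blue points are lower and red points higher at an adjusted p under 0.05, and grey points did not pass; values run from -1.31 for SKA3 to 1.27 for ZW10.

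Promoters of 6 members that fell and of 3 that rose are shown to display a short motif near the start of the gene and its surroundings. Genes of G2 and M phase often carry a cell cycle genes homology region (CHR), TTTGAA or TTCGAA, close to the start, which is bound by the MuvB core of the DREAM and B-MYB complexes, and CCAAT boxes upstream, bound by NF-Y. RefSeq promoter windows (GRCh38.p14, 250 bases before to 50 after the start) were found for 40 of the 49 members, 5 of them with more than 1 start; CENPH, CENPL, CENPM, CENPJ, MIS18A, KNL1, KNTC1, BUB3 and TTK had no entry. The first 6 printed are members that fell and hold the motif, picked after it was found, so their difference from the 3 that rose is set by that choice. Of the 28 members that fell and have a window, 12 lack the motif within 50 bases of the start. Each sequence runs 5′ to 3′ from base -70 to base 30, where base 1 is the first of the gene, in lower case with CHR and CCAAT letters on either strand in capitals.
SKA3 (chr13:21176523-21176622, minus strand): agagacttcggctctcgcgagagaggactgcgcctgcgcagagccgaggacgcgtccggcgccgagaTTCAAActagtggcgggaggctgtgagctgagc
SPDL1 (chr5:169583703-169583802, plus strand): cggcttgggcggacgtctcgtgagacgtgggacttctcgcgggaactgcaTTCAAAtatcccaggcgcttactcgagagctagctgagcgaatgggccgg
SPC25 (chr2:168890401-168890500, minus strand): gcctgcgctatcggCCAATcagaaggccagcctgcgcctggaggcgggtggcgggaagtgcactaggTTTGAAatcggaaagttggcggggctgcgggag
MAD2L1 (chr4:120066819-120066918, minus strand): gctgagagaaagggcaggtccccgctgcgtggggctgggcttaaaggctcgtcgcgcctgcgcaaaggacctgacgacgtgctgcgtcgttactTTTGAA
BUB1 (chr2:110678034-110678133, minus strand): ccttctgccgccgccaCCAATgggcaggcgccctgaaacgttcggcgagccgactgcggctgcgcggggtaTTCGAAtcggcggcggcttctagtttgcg
SGO1 (chr3:20186177-20186276, minus strand): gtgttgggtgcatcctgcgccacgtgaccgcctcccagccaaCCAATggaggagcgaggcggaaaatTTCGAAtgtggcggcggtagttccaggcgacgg
SKA2 (chr17:59155157-59155256, minus strand): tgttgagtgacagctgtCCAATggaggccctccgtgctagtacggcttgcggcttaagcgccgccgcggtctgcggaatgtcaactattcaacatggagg
MAD1L1 (chr7:2232916-2233015, minus strand): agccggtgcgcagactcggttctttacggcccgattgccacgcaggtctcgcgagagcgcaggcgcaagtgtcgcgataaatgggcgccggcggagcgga
ZW10 (chr11:113773663-113773762, minus strand): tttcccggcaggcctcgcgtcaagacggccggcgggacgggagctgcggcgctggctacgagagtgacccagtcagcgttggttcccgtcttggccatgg
In the first 6, all of genes that fell, TTTGAA or its reverse complement spans bases -3 to 3 in SKA3 and SPC25, -20 to -15 in SPDL1 and 25 to 30 in MAD2L1. TTCGAA, which reads the same on both strands, spans bases 2 to 7 in BUB1 and -3 to 3 in SGO1. The last 3 belong to genes that rose, and none of them has either motif in the stretch shown. SKA2 has a CCAAT box at -53 to -49. Among the 6 that fell, SPC25 has a CCAAT box at -56 to -52, BUB1 at -54 to -50 and SGO1 at -28 to -24.

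Over all 40 members with a window, TTTGAA or TTCGAA lay within 50 bases of the start in 17 genes, 42.5%. This compares with 6.24% of the 27305 genes in the promoter table and 4.78% of the 10611 tested genes with a window. Among members that fell it was found in 16 of 28 (57.1%), among those that rose in 0 of 5, and among those that did not pass in 1 of 7 (CENPW, bases 18 to 23); these shares were not tested against each other. For all tested genes the shares were 6.65% of those that fell, 3.09% of those that rose and 4.38% of those that did not pass. In the whole window of 300 bases the motif was found in 18 of 28 members that fell, in 1 of 5 that rose (ZW10, bases -224 to -219) and in 15.1% of tested genes. CCAAT was found on either strand in 20 of 28 members that fell, in 2 of 5 that rose (SKA2 and ZW10) and in 42.7% of tested genes. The stretch of 50 bases was chosen after the positions had been seen, the motifs are short, and a match is a string of letters and not a measured binding site.

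Of 4 genes for CENP-A and its loading, 3 fell. HJURP, the chaperone that deposits CENP-A, was at 58.8, 58.3 and 59.7 CPM in the OTUD1 siRNA libraries, against 101, 99.2 and 101 CPM in the control libraries, 1.71-fold lower (log2 fold change -0.77, SE 0.044, adjusted p = 5.53e-15). OIP5, also known as MIS18B, a subunit of the Mis18 complex that licenses centromeres for loading, was at 7.75, 6.95 and 7.44 CPM after OTUD1 siRNA, against 12.8, 12.3 and 13.1 CPM in the control libraries (log2 fold change -0.79, SE 0.11, adjusted p = 3.08e-07). CENPA, the centromeric histone, was at 24.5, 27.95 and 24.3 CPM after OTUD1 siRNA, against 36.8, 34.1 and 39.1 CPM in controls (log2 fold change -0.52, SE 0.071, adjusted p = 3.26e-07). In all 3 the groups did not overlap. MIS18A, the partner of OIP5 in the Mis18 complex, did not pass, with 20.1, 20.2 and 21.1 CPM in OTUD1 siRNA libraries and 27.5, 20.2 and 20.9 CPM in controls (log2 fold change -0.16, SE 0.092, adjusted p = 0.142). Its first control library stood above the other 5 libraries, which lay close together. OIP5 shares 38% of its annotated exon bases with OIP5-AS1 on the opposite strand, and no source used here says whether counting used strand, so its level is uncertain. In all, 21 of the 49 members share exon bases with another gene, 18 of them with a gene on the opposite strand. The same limit holds for each of them.

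The 15 CCAN genes split into 10 that fell, 1 that rose and 4 that did not pass, with a median log2 fold change of -0.44. CENPH, a subunit of the CENP-H/I/K/M module, was at 14.9, 16.3 and 15.2 CPM in OTUD1 siRNA libraries, against 32.9, 29.2 and 30.1 CPM in controls, 1.99-fold lower (log2 fold change -0.99, SE 0.078, adjusted p = 5.85e-12). CENPM of the same module was at 36.2, 34.6 and 39.3 CPM after OTUD1 siRNA, against 53.4, 53.96 and 55.9 CPM in controls (log2 fold change -0.57, SE 0.058, adjusted p = 1.41e-09). Their groups lay well apart, and CENPH had the largest decrease of the network. CENPU, of the CENP-O/P/Q/U module, was at 14.5, 15.2 and 12.9 CPM after OTUD1 siRNA, against 23.03, 27.6 and 24.1 CPM in controls (log2 fold change -0.80, SE 0.089, adjusted p = 6.01e-09). CENPL fell 1.54-fold, CENPQ 1.495-fold, CENPN 1.41-fold, CENPO 1.39-fold, CENPX 1.36-fold and CENPK 1.19-fold. CENPL and CENPN form the pair that recognises the CENP-A nucleosome, and CENPX belongs to the histone-fold group CENP-T/W/S/X. CENPO shares 27% of its exon bases with ADCY3, CENPN 12.8% with CMC2 and CENPU 11.7% with PRIMPOL, all on the opposite strand. The levels of these genes are uncertain too.

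CENPC, the scaffold that joins the CENP-A nucleosome to the Mis12 complex, had the weakest call. It was at 7.48, 7.05 and 10.9 CPM in OTUD1 siRNA libraries, against 11.5, 10.7 and 9.58 CPM in controls (log2 fold change -0.33, SE 0.13, adjusted p = 0.0375). The third OTUD1 siRNA library lay among the controls, and the call was lost under 7 of 14 alternative settings, where its log2 fold change ran from -0.32 to -0.20 and its adjusted p from 0.0728 to 0.218. Without OTUD1 siRNA replicate 1, OTUD1 siRNA replicate 2, control siRNA replicate 1 or control siRNA replicate 2 the adjusted p was 0.183, 0.218, 0.12 and 0.0733.

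CENPT, which like CENPC links the inner centromere to the outer kinetochore, went the other way. It was at 27.9, 26.4 and 27.2 CPM in OTUD1 siRNA libraries, against 21.2, 16.7 and 23.1 CPM in controls, 1.34-fold higher (log2 fold change 0.42, SE 0.088, adjusted p = 0.000139). All OTUD1 siRNA libraries lay above all controls, although the controls spread more widely. CENPT shares 10.8% of its exon bases with TSNAXIP1 and 6.86% with THAP11, both on the opposite strand, so its level is uncertain. Its histone-fold partner CENPW did not pass, with 26.99, 27.3 and 28.3 CPM after OTUD1 siRNA and 28.7, 27.3 and 25.1 CPM in controls (log2 fold change 0.025, SE 0.07, adjusted p = 0.776). CENPI, of the CENP-H/I/K/M module, was at 10.2, 8.64 and 10.3 CPM after OTUD1 siRNA, against 12.3, 10.7 and 11.2 CPM in controls (log2 fold change -0.23, SE 0.11, adjusted p = 0.0703). Its groups were separate but close. The 2 members with the fewest counts also did not pass. CENPP had 2.32, 3.28 and 3.06 CPM after OTUD1 siRNA and 3.004, 2.203 and 3.68 CPM in controls (log2 fold change -0.039, SE 0.22, adjusted p = 0.889). CENPS had 2.05, 1.14 and 1.94 CPM after OTUD1 siRNA and 2.38, 1.65 and 2.51 CPM in controls (log2 fold change -0.34, SE 0.27, adjusted p = 0.282). Both rest on few reads, 23 to 45 counts a library for CENPS and 40 to 66 for CENPP. CENPS shares 64.7% of its exon bases with the readthrough gene CENPS-CORT and CENPP shares 38% with IPPK on the opposite strand, so both levels are uncertain.

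Of the 6 genes of the Knl1 and Mis12 complexes, 4 fell and 2 did not pass. KNL1, the large scaffold that phosphorylation turns into a landing site for BUB1 and BUB3, stood apart from the other 5. Its level was 9.94, 11.2 and 10.8 CPM in OTUD1 siRNA libraries, against 23.6, 25.8 and 26.9 CPM in controls, 2.39-fold lower (log2 fold change -1.26, SE 0.089, adjusted p = 5.62e-13). NSL1 was at 30.95, 33.4 and 32.8 CPM after OTUD1 siRNA, against 40.3, 42.1 and 42.04 CPM in controls (log2 fold change -0.36, SE 0.06, adjusted p = 8.67e-06). MIS12, the subunit that names the complex, was at 19.9, 18.5 and 20.2 CPM after OTUD1 siRNA, against 23.8, 26.05 and 26.3 CPM in controls (log2 fold change -0.38, SE 0.077, adjusted p = 9.74e-05). Neither gene's groups overlapped, and the decreases were small beside that of KNL1. MIS12 shares 9.53% of its exon bases with DERL2 on the opposite strand. ZWINT, the binding partner of KNL1, fell 1.18-fold. DSN1 had 16.5, 13.5 and 15.4 CPM in OTUD1 siRNA libraries and 15.6, 14.3 and 16 CPM in controls (log2 fold change -0.012, SE 0.10, adjusted p = 0.924), with overlapping groups. PMF1 had 23.3, 21.6 and 22.4 CPM after OTUD1 siRNA and 29.7, 22.6 and 24.1 CPM in controls (log2 fold change -0.18, SE 0.085, adjusted p = 0.0725), again with overlap, and it shares 23.3% of its exon bases with the readthrough gene PMF1-BGLAP.

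All 4 subunits of the Ndc80 complex fell, but not by the same amount. NUF2, which forms the microtubule-binding end together with NDC80, was at 20.5, 18.8 and 19 CPM in OTUD1 siRNA libraries, against 40.8, 42.02 and 39.2 CPM in controls, 2.09-fold lower (log2 fold change -1.06, SE 0.068, adjusted p = 5.3e-14). SPC25, of the end that faces the centromere, was at 15.1, 16.2 and 13.1 CPM after OTUD1 siRNA, against 20.8, 21.04 and 21.7 CPM in controls (log2 fold change -0.52, SE 0.089, adjusted p = 1.12e-05). NDC80 itself was at 14.7, 15.7 and 15.1 CPM after OTUD1 siRNA, against 21.9, 19.9 and 21.9 CPM in controls (log2 fold change -0.48, SE 0.084, adjusted p = 1.3e-05). The groups were separate for each of these, and SPC24 fell 1.296-fold.

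The 3 subunits of the Ska complex, which tracks shrinking microtubule ends together with Ndc80, parted in direction. SKA3 (chromosome 13, 21153595 to 21176602, minus strand in hg38) had the largest decrease of all 49 genes. It was at 12.7, 13.2 and 12.1 CPM in OTUD1 siRNA libraries, against 30.9, 32.9 and 30.4 CPM in controls, 2.48-fold lower (log2 fold change -1.31, SE 0.079, adjusted p = 1.5e-14). SKA1 was at 15.3, 13.1 and 14.5 CPM after OTUD1 siRNA, against 19.8, 23.9 and 22.4 CPM in controls (log2 fold change -0.63, SE 0.091, adjusted p = 7.96e-07). SKA2 (chromosome 17, 59109951 to 59155269, minus strand) was instead at 71.98, 76.6 and 72.8 CPM after OTUD1 siRNA, against 43.99, 47.5 and 49.4 CPM in controls, 1.57-fold higher (log2 fold change 0.65, SE 0.053, adjusted p = 1.26e-11). For each subunit the 3 libraries of one group lay together and apart from the other group, as the plot of subunits by library shows.

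**Figure D4:**
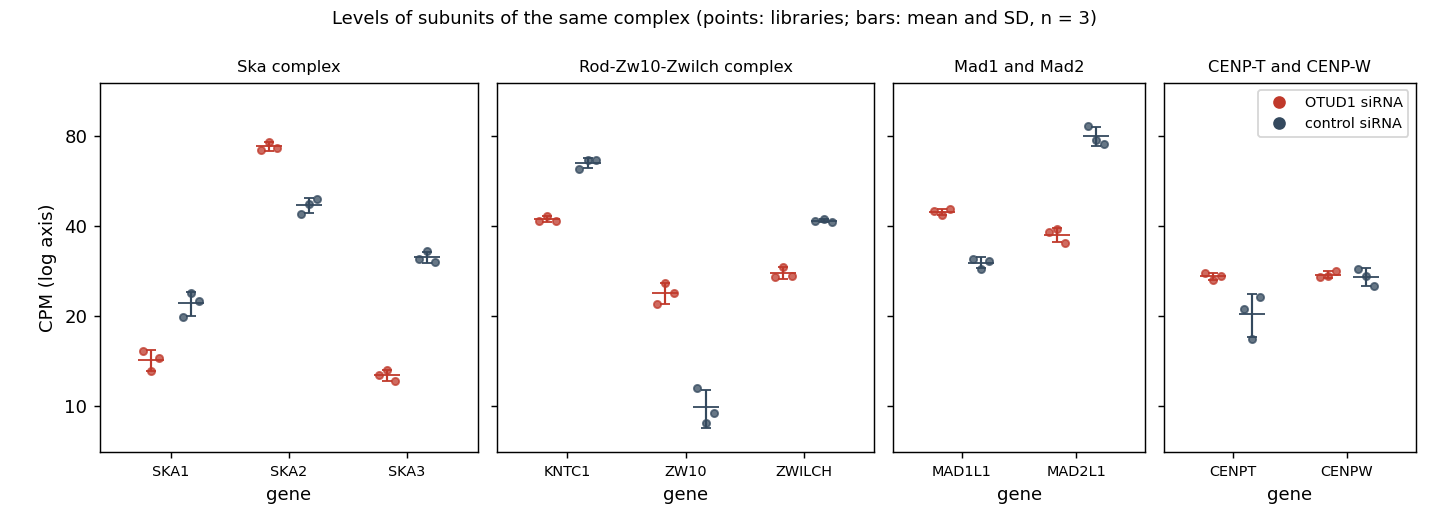
CPM on a log axis for subunits of the Ska complex, the Rod-Zw10-Zwilch complex, Mad1 with Mad2, and CENP-T with CENP-W. Points are libraries, bars the mean and SD of 3 libraries, red for OTUD1 siRNA and dark for control siRNA; SKA2, ZW10, MAD1L1 and CENPT are higher after OTUD1 siRNA while SKA1, SKA3, KNTC1, ZWILCH and MAD2L1 are lower.

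The corona, the outermost layer of the kinetochore, showed the same kind of split. The Rod-Zw10-Zwilch complex, built from KNTC1 (Rod), ZW10 and ZWILCH, brings Mad1 and the motor dynein to kinetochores. ZW10 (chromosome 11, 113733187 to 113773811, minus strand in hg38) had the largest increase of the 49 genes. It was at 22.02, 25.8 and 23.8 CPM in OTUD1 siRNA libraries, against 11.5, 8.76 and 9.46 CPM in controls, 2.42-fold higher (log2 fold change 1.27, SE 0.10, adjusted p = 5.49e-12). ZW10 also works outside mitosis, in a tethering complex for vesicles between the Golgi and the endoplasmic reticulum. Its partners KNTC1 and ZWILCH fell 1.54-fold and 1.499-fold. ZWILCH shares 7.61% of its exon bases with LCTL and 3.26% with RPL4, both on the opposite strand. SPDL1 (Spindly), the adaptor between that complex and dynein, was at 34.7, 38.8 and 34.4 CPM after OTUD1 siRNA, against 77.3, 86.5 and 79.4 CPM in controls, 2.26-fold lower (log2 fold change -1.17, SE 0.058, adjusted p = 1.49e-16). CENPF, a large coiled-coil protein of the corona, was at 79.4, 75.7 and 77.8 CPM after OTUD1 siRNA, against 108, 120.4 and 119 CPM in controls (log2 fold change -0.58, SE 0.046, adjusted p = 7.9e-12). The kinesin CENPE, which moves chromosomes toward the spindle equator, fell 1.45-fold.

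Of 6 spindle checkpoint genes, 5 fell and MAD1L1 rose. BUB3, the adaptor that carries BUB1 and BUB1B to KNL1, had the smallest adjusted p of the 49 genes. Its level was 127, 129 and 127 CPM in OTUD1 siRNA libraries, against 229, 245 and 234 CPM in controls, 1.85-fold lower (log2 fold change -0.89, SE 0.037, adjusted p = 2.62e-18). MAD2L1 (Mad2), the protein that changes shape to capture CDC20, was at 38.2, 39.02 and 35.1 CPM after OTUD1 siRNA, against 86.1, 77.8 and 75.4 CPM in controls, 2.13-fold lower (log2 fold change -1.09, SE 0.058, adjusted p = 8.3e-16). TTK (Mps1), the kinase that starts the signal, was at 25.2, 23.2 and 25.6 CPM after OTUD1 siRNA, against 43.9, 45.98 and 40.4 CPM in controls (log2 fold change -0.82, SE 0.067, adjusted p = 1.29e-11). The pseudokinase gene BUB1B (BubR1) fell 1.59-fold and the kinase gene BUB1 1.43-fold. BUB1B shares 10.2% of its exon bases with BUB1B-PAK6 on the same strand. MAD1L1 (Mad1; chromosome 7, 1815793 to 2233243, minus strand in hg38), which templates the change in Mad2 at kinetochores, was instead at 44.9, 43.4 and 45.6 CPM after OTUD1 siRNA, against 31.1, 28.8 and 30.7 CPM in controls, 1.48-fold higher (log2 fold change 0.56, SE 0.06, adjusted p = 3.41e-09). None of these genes had overlapping groups.

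Both shugoshins, which protect cohesin at centromeres, fell. SGO2 was at 13.4, 16.6 and 13.6 CPM in OTUD1 siRNA libraries, against 30.9, 35.1 and 32.9 CPM in controls, 2.27-fold lower (log2 fold change -1.18, SE 0.084, adjusted p = 6.57e-13). SGO1 was at 6.61, 8.59 and 7 CPM after OTUD1 siRNA, against 10.1, 13.3 and 11.3 CPM in controls (log2 fold change -0.65, SE 0.12, adjusted p = 4.87e-05). Their groups did not overlap. SGO1 shares 17.7% of its exon bases with SGO1-AS1 on the opposite strand.

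Of the 3 remaining genes with a CENP letter name, 1 rose, 1 fell and 1 did not pass. CENPB, which binds alpha-satellite DNA and descends from a transposase, was at 143, 141 and 154 CPM in OTUD1 siRNA libraries, against 135, 127 and 126 CPM in controls, 1.13-fold higher (log2 fold change 0.18, SE 0.041, adjusted p = 0.000562). CENPJ, despite its name a builder of centrioles and not of centromeres, was at 6.84, 9.23 and 8.83 CPM after OTUD1 siRNA, against 10.4, 12.9 and 10.6 CPM in controls (log2 fold change -0.45, SE 0.12, adjusted p = 0.00234). Groups were separate for both. CENPV did not pass, with 27.5, 23.9 and 24.1 CPM after OTUD1 siRNA and 25.3, 24.1 and 22.8 CPM in controls (log2 fold change 0.068, SE 0.076, adjusted p = 0.458).

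Ratios of counts within a library do not depend on the scaling between libraries, and 15 pairs of members were compared in this way. Members were chosen with earlier results of these data known, and several pairs set a gene that fell over a gene that rose. The differences in ratio therefore largely restate the fold changes above and are not separate support for them. The SKA3 to SKA2 ratio was 0.177, 0.172 and 0.166 in OTUD1 siRNA libraries, against 0.703, 0.693 and 0.616 in control libraries, a difference of -1.96 in log2. KNTC1 to ZW10 stood at 1.89, 1.68 and 1.74 after OTUD1 siRNA, against 5.38, 7.62 and 7 in controls (-1.90 in log2). Both ratios were far apart between the groups. TTK to MAD1L1 was 0.562, 0.535 and 0.562 after OTUD1 siRNA, against 1.41, 1.597 and 1.32 in controls. Within the Ndc80 complex, NUF2 to SPC24 was 0.846, 0.854 and 0.842 after OTUD1 siRNA, against 1.31, 1.48 and 1.32 in controls, whereas NDC80 to SPC25 was 0.973, 0.969 and 1.16 after OTUD1 siRNA, against 1.05, 0.945 and 1.01 in controls (two-sided exact permutation p = 0.8). KNL1 to MIS12 was 0.5, 0.603 and 0.537 after OTUD1 siRNA, against 0.992, 0.989 and 1.02 in controls. SGO1 to SGO2 was 0.492, 0.518 and 0.516 after OTUD1 siRNA, against 0.328, 0.378 and 0.345 in controls, and BUB1 to BUB3 was 0.611, 0.637 and 0.627 after OTUD1 siRNA, against 0.476, 0.474 and 0.503 in controls. In these 2 pairs both genes fell, and the ratio was higher after OTUD1 siRNA. For 12 of the 15 pairs no library of one group lay among the other. Their two-sided exact permutation p was 0.1, the smallest that 3 libraries against 3 can give. After Benjamini-Hochberg adjustment over the 15 pairs it was 0.125, so none passed 0.05. Separate groups are common in this comparison: 33% of all single genes tested lay fully lower and 31.5% fully higher. Pairs of other genes were not compared, so the count of separate pairs cannot be called particular to these genes. CENPF to CENPE was 4.72, 4.72 and 4.69 after OTUD1 siRNA, against 5.08, 5.005 and 4.54 in controls (exact permutation p = 0.4), and CENPU to CENPQ gave an exact permutation p = 0.2.

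**Figure D5:**
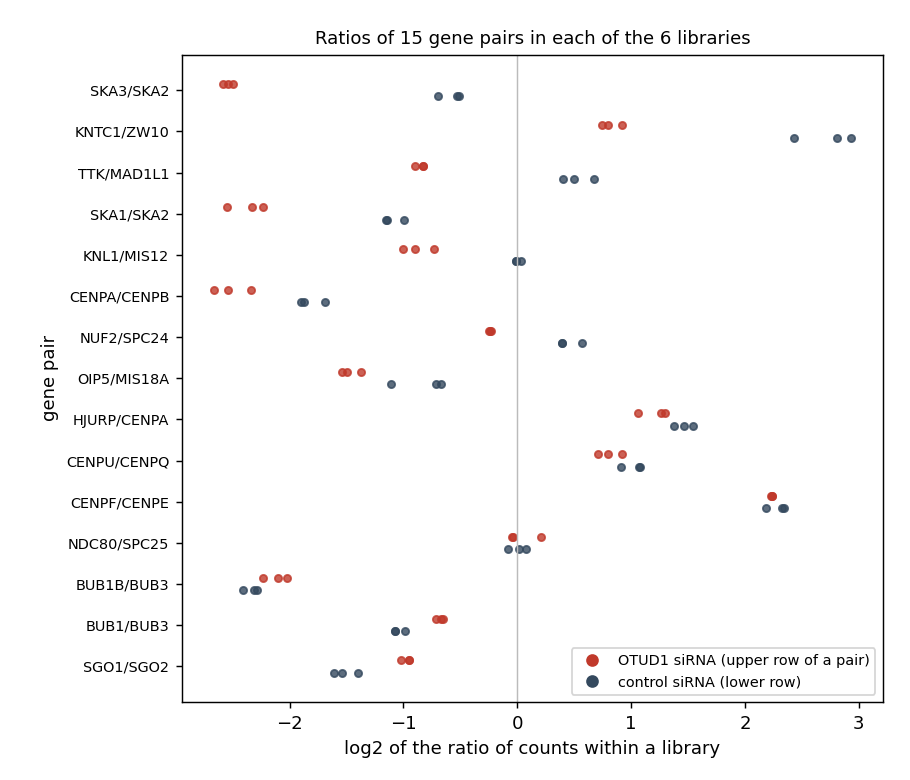
Log2 of the ratio of counts of 15 gene pairs in each library, red for OTUD1 siRNA (upper row of a pair) and dark for control siRNA (lower row). The groups are widest apart for SKA3/SKA2, and they overlap for NDC80/SPC25, CENPF/CENPE and CENPU/CENPQ.

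Levels per length were obtained by dividing CPM by the length of all annotated exons of a gene, overlaps merged, which counts exons that these cells may not use. The range was wide, from 0.295 ± 0.0509 CPM per kb for CENPP after OTUD1 siRNA and 0.302 ± 0.0754 in controls (SD, n = 3) to 51.5 ± 2.42 after OTUD1 siRNA and 45.5 ± 1.74 in controls for CENPB. Within the Ska complex, SKA2 was at 23.4 ± 0.782 CPM per kb in OTUD1 siRNA libraries, against 4.84 ± 0.388 for SKA1 and 4.15 ± 0.172 for SKA3. In control libraries the same level was 14.9 ± 0.872 for SKA2, 7.47 ± 0.695 for SKA1 and 10.3 ± 0.436 for SKA3. The distance of SKA2 from its partners was therefore wider after OTUD1 siRNA. ZW10 was at 7.98 ± 0.635 CPM per kb after OTUD1 siRNA, above KNTC1 at 3.72 ± 0.0851 and ZWILCH at 5.74 ± 0.256. In controls ZW10 was the lowest of the 3, at 3.31 ± 0.479, with KNTC1 at 5.74 ± 0.2301 and ZWILCH at 8.598 ± 0.0936. In the Ndc80 complex, NUF2 was at 5.78 ± 0.277 CPM per kb after OTUD1 siRNA, below SPC24 at 8.08 ± 0.407 and SPC25 at 8.03 ± 0.863, which did not differ beyond their spread. NDC80 was lower still after OTUD1 siRNA, at 4.21 ± 0.141. In controls NUF2, at 12.1 ± 0.414, lay beside SPC25 at 11.5 ± 0.265, with SPC24 at 10.5 ± 0.485 and NDC80 the lowest at 5.896 ± 0.324.

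Genes that work beside these proteins were taken from 4 lists of 55 genes in all, of which 31 fell, 7 rose and 17 did not pass. These are 56.4% lower and 12.7% higher, beside 31.1% and 29.3% of all genes tested. The lists were chosen with earlier results of these data known, so these shares are not separate support. With library totals in place of TMM, 27 fell and 11 rose, beside 3456 lower and 6189 higher of all 15244 genes tested. With a filter at a mean of 5 CPM, 31 fell and 11 rose, beside 3895 lower and 3891 higher of 11041 genes. Of 16 further centromere and kinetochore genes, 10 fell and 3 rose, with a median log2 fold change of -0.27. PPP1CC, a catalytic subunit of the phosphatase that silences the checkpoint, fell 1.53-fold, SPAG5 (Astrin) 1.696-fold and the microtubule depolymerase KIF2C 1.61-fold, while BOD1 rose 1.45-fold, NDEL1 1.203-fold and the CCAN subunit gene ITGB3BP (CENP-R) 1.22-fold. Of 6 genes of the chromosomal passenger complex and its kinases, which correct faulty attachments, 5 fell and 1 (BIRC5, log2 fold change -0.084, adjusted p = 0.0692) did not pass. HASPIN, the kinase that marks histone H3 for that complex, was at 5.79, 6.35 and 6.89 CPM in OTUD1 siRNA libraries, against 17.2, 21.1 and 17.2 CPM in controls, 2.93-fold lower (log2 fold change -1.55, SE 0.11, adjusted p = 9.25e-13). PLK1 fell 1.64-fold and CDCA8 (Borealin) 1.69-fold.

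Of 21 genes of the anaphase-promoting complex, its activators and checkpoint silencing, 8 fell, 4 rose and 9 did not pass, with a median of -0.1. The share that fell, 38.1%, is near the 31.1% of all genes tested, and 19% rose, beside 29.3% of all genes. Those that fell included CDC27, a core subunit, 1.58-fold, the activator CDC20 1.46-fold and TRIP13, the ATPase that takes Mad2 out of its active shape, 1.395-fold. The core subunit genes CDC23, ANAPC4 and ANAPC7 rose 1.25-fold, 1.25-fold and 1.15-fold. Of 12 transcriptional regulators of G2 and M phase genes, 8 fell and 4 did not pass, with a median of -0.36. Those that did not pass were MYBL2 (B-MYB, log2 fold change -0.08, adjusted p = 0.0805), RBL2 (-0.017, 0.829), LIN52 (0.016, 0.916) and LIN37 (-0.71, 0.105, with few counts). TFDP1, the partner of E2F factors, fell 1.58-fold and FOXM1 1.304-fold. LIN54, the subunit of the MuvB core that contacts the CHR, was at 9.03, 11.1 and 9.94 CPM in OTUD1 siRNA libraries, against 18.4, 17.6 and 19.97 CPM in controls, 1.86-fold lower (log2 fold change -0.90, SE 0.10, adjusted p = 6.36e-09).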

How the data were processed

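Total RNA of ACHN cells was extracted with Trizol and made into libraries with a directional NEBNext kit, per the labels' protocols. The authors deposited a table of whole-number counts per gene for the 6 libraries, although its name speaks of FPKM; no FPKM values were used. The build is hg38 per the submitters' processing notes; not given in the sources used here: the aligner, counter, strand setting and annotation. Exon lengths and overlaps were taken from GENCODE 29, and promoters from RefSeq (GRCh38.p14).

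Genes were filtered with filterByExpr (at least 10 counts in 3 libraries and 15 in total), scaled with TMM and tested with edgeR 4.0.16 (quasi-likelihood, two-sided, Benjamini-Hochberg over all 15244 genes tested) in R 4.3.3; limma 3.58.1 and DESeq2 1.42.0 served as alternatives. The biological coefficient of variation was 3.78%. The scripts were tested on simulated data with 200 changed genes. Far more genes were called here, so that test cannot show which scaling between libraries is right. Count ratios were compared by exact permutation over libraries.

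Per-library values are given for the 3 called members with the smallest adjusted p in each role, for members called against the main direction and for those not called. From each neighbouring list the text names 3 called genes by adjusted p, and at most 3 called in the opposite direction. Members, roles and lists were chosen with earlier results of these data known. Alternatives were other filters, scalings and tools, a replicate block, and leaving out each library.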

Additional observations from a re-analysis of the deposited data

How the results depend on the processing

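The number of members called lower was 34 to 37 and the number called higher 5 or 6 under the 14 alternatives, against 36 and 5 in the report; leaving out 1 library gave 35 to 37 lower, 5 higher, 15 to 21 lower by at least 1.5-fold and medians of -0.54 to -0.49. Members lower by at least 1.5-fold numbered 12 with library totals and 14 with a filter at a mean of 5 CPM, against 17. The share of all genes past that fold was not counted under these settings. Their median log2 fold change was 0.13 with library totals and 0.0072 with the filter, against 0.0056. The median of the members was -0.47 with that filter, which left 47 members, -0.39 with library totals and -0.48 with quantile normalization. Of the 55 neighbouring genes, 11 were called higher with the filter at 5 CPM and 11 with library totals, against 7. Of all genes, 3891 of 11041 were called higher with that filter and 6189 of 15244 with library totals, against 4460 of 15244. The cause was not tested. CENPC lost its call with the filter at 5 CPM (adjusted p = 0.0728), library totals (0.203), DESeq2 (0.0891) and without any of 4 libraries, and CENPK with library totals (0.158). Among members not called, CENPV passed with library totals (0.0262), CENPI with quantile normalization (0.0447), PMF1 without control siRNA replicate 2 (0.0142) and MIS18A without the same library (0.0354). Log2 fold changes near 0 changed sign without passing. DSN1 was at 0.036 with the filter at 5 CPM, 0.12 with library totals. CENPP was at 0.0896 with library totals. Leaving out 1 library gave -0.082 to 0.065 for DSN1, -0.22 to 0.15 for CENPP, -0.0045 to 0.11 for CENPV and -0.024 to 0.066 for CENPW.

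Libraries with the same number showed little shared deviation (correlations of their deviations 0.0225, 0.134 and -0.00064). Libraries with different numbers were not compared, so these values cannot settle whether the numbers pair the libraries. With a replicate block 37 members were called lower, PMF1 (adjusted p = 0.044) being added, 5 higher and 18 lower by at least 1.5-fold. The median was -0.52, and 32 neighbouring genes were lower and 7 higher. Few counts limit CENPS and CENPP.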
